A study of Homo sapiens with 6 samples.

Results

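Described here is the gene expression profile of untreated AC16 cells, as read on the 3 control arrays of a set of 6. The control arrays were chosen by their label, and their genes were ranked by the mean log2 value over these arrays. A gene was called expressed when all 3 control arrays read above 5.66, the highest value of any background probe set in the table. This held for 3526 of 22465 genes (15.7%).

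The study set AC16 cells exposed for 24 h to 50 µg/mL of PM2.5, the fine fraction of airborne particles, on 3 arrays, beside control AC16 cells on 3 arrays. The labels give no vehicle, time or other agent for the control cells. Both groups share the cell line, Trizol extraction of total RNA and biotin labelling, and the exposed arrays served here for the choice of 1 transcript cluster per gene and for the table-wide background and ceiling values. Titles number the arrays as biological replicates, but separate cultures are nowhere stated, so the spread between them may be partly technical.

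AC16 is an established human line made by fusing adult ventricular heart cells with a fibroblast line that carries SV40 large T antigen. It keeps dividing, which adult heart muscle cells hardly do, and it is used as a stand-in for heart muscle cells in culture. Working heart muscle is known for abundant sarcomere proteins, calcium pumps and release channels, fatty acid oxidation and the hormone genes NPPA and NPPB.

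The values are log2 signals. Probes differ in how strongly they bind their target, so the rank of a gene describes the signal of its probes and not the number of its RNA molecules. A gene under 5.66 was not shown to be silent. The median over all genes of the mean control value was 4.27, and over expressed genes it was 7.05. The threshold is strict, since the highest background probe set read 5.66 on control 1, against 4.68 on control 2 and 4.89 on control 3.

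Control 3 stood apart from the others. Across the 3526 expressed genes the values of controls 1 and 2 had a Pearson correlation of 0.994. Controls 1 and 3 correlated at 0.961, and controls 2 and 3 at 0.946 (across genes, which are not independent). The mean of 8 hybridisation and labelling spike-in probe sets was 10.3 on control 3, against 10.9 on each of controls 1 and 2. Whether the spike-in signal had a part in what follows was not tested. Leaving out control 3, the count of expressed genes was 3664, and the count of expressed members moved by more than 1.5 times in 1 of 71 gene lists. The cancer-testis list, added later and not among the 71, had 19 expressed members with and without control 3.

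The signal was spread over a wide range. Of the expressed genes, 1714 averaged under 7, 1327 averaged 7 to 10, 244 averaged 10 to 13 and 241 averaged 13 or more. On all 3 arrays 17839 genes stayed at or under the threshold. The remaining 1100 passed it on 1 or 2 arrays, 583 of them on control 3 alone.

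**Figure D1:**
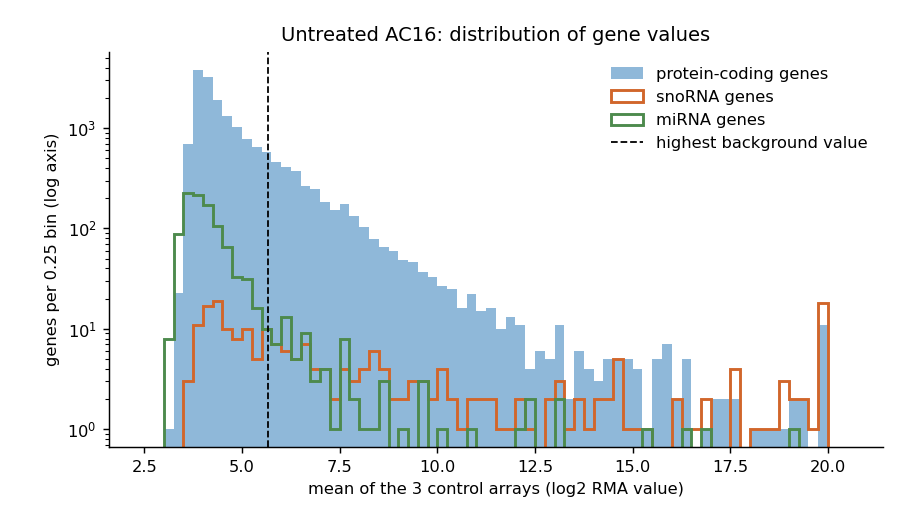
Histogram of the mean log2 RMA value over the 3 control arrays for protein-coding, snoRNA and miRNA genes, in bins of 0.25, with a log axis for the number of genes. The dashed line marks the threshold of 5.66. Most protein-coding genes lie left of it, and snoRNA genes form a cluster at the ceiling of 19.93.

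Protein-coding genes were expressed in 2927 of 17085 cases (17.1%). Small nucleolar RNA (snoRNA) genes, whose products guide chemical modification of ribosomal and spliceosomal RNA, were expressed in 127 of 239 cases (53.1%). Spliceosomal and other small nuclear RNA genes were expressed in 18 of 23 cases, and all 4 genes of Y RNAs, which bind the Ro protein, were expressed. Long noncoding RNA genes were expressed in 27 of 1840 cases (1.47%) and miRNA genes in 63 of 1040 (6.06%). Of the 155 immunoglobulin and T cell receptor V segments, 0 were expressed.

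At the top of the range 33 genes stood at the ceiling of 19.93 on all 3 control arrays, so their order and their spread could not be measured. Short structural RNAs made up much of this group. They included the 7SK RNA gene RN7SK, the signal recognition particle RNA gene RN7SL1, the RNase MRP RNA gene RMRP, the spliceosomal genes RNU4ATAC, RNU5A-1 and RNU5D-1, the Y RNA gene RNY3, and the snoRNA genes SNORD3A, SNORD13, SNORD41, SNORD60, SNORD61 and SNORA22. The protein-coding genes among them were the actin gene ACTG1, the tubulin gene TUBA1B, the elongation factor gene EEF2, the ferritin light chain gene FTL, the glycolytic gene GAPDH, the histone genes H1-4, H2AC20 and H4C3, and the choline transporter gene SLC44A4.

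SLC44A4 was a case of 1 cluster out of 8. The cluster that stood for it, placed by its name on an alternative haplotype of the major histocompatibility region, was at 19.93 on every control array, while the means of the other 7 clusters with this symbol lay between 3.94 and 3.96. The primate noncoding RNA gene BCYRN1 had 2 clusters, one at 19.93 and the other at a mean of 3.63. Of the 479 genes with several clusters, 49 had every cluster expressed, 62 had some but not all, and 368 had none. Several ceiling genes also have near-identical copies, such as FTL and FTLP3 or RNY3 and RNY3P1, whose probes may share signal.

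Below the ceiling, the protein-coding genes with the highest signal had varied roles. EMP3, an epithelial membrane protein gene, read 19.89, 19.89 and 19.88 on controls 1, 2 and 3. The tubulin gene TUBB read 19.83 on all 3. RPS15, of the small ribosomal subunit, read 19.09, 19.45 and 19.45. ATP5F1B, the catalytic beta subunit of ATP synthase, read 18.83 on every array, and the glycolytic enolase gene ENO1 read 18.64 on every array. The translation factor gene EEF1A1 was at 18.01 and the pyruvate kinase gene PKM at 16.41, again with the same value 3 times. In all, 63 expressed genes had the same value on the 3 control arrays to the digits of the table, 30 of them below the ceiling, so an SD of 0 here is not a measure of precision.

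MT2A, a metallothionein that binds zinc, copper and cadmium, read 19.13, 19.93 and 18.58, touching the ceiling on control 2 alone. The actin-binding gene PFN1 read 17.55, 17.62 and 17.68. The ER chaperone gene CALR read 17.37, 16.76 and 18.21, highest on control 3, where MT2A was lowest. Of the 100 genes with the highest means, which all averaged at least 17.1, 33 were snoRNA genes and 25 were protein-coding. Of the top 1000, with means of at least 8.14, 674 were protein-coding.

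The sequence around the start site of several of these genes is shown because TATAAA and pyrimidine-rich starts were found more often in promoters of genes averaging 13 or more than in those of any lower range. Each line gives 50 bases before and 30 bases from the RefSeq start (GRCh38.p14), 5′ to 3′ on the gene's strand, with capitals on TATAAA between 45 and 15 bases before the start, and on a pyrimidine word (the word CTCTT, the word CTTTC, the word CTTTT or the word CCTTT) between 10 bases before and 20 after it.
EEF2, chr19:3985434-3985513, minus strand: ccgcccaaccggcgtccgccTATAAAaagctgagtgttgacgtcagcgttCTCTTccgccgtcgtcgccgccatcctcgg
EEF1A1, chr6:73521003-73521082, minus strand: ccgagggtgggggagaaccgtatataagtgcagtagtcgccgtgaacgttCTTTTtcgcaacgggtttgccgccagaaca
RPS16, chr19:39435920-39435999, minus strand: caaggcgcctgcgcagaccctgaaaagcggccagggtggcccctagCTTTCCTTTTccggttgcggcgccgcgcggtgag
RPL26, chr17:8383164-8383243, minus strand: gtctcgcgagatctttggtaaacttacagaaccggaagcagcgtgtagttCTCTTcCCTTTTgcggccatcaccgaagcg
RPL35, chr9:124861928-124862007, minus strand: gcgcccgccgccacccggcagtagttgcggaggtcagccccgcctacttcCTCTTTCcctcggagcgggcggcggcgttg
CALR, chr19:12938559-12938638, plus strand: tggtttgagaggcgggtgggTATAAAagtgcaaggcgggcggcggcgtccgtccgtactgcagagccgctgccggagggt
RPS28, chr19:8321446-8321525, plus strand: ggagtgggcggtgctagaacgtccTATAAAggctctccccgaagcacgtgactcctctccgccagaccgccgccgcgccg
NPPA, chr1:11847754-11847833, minus strand: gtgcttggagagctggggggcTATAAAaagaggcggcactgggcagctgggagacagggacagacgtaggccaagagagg

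Only the gene's own strand was searched, and the pyrimidine words overlap one another. EEF2 held both motifs. The ribosomal protein genes RPS16, RPL26 and RPL35 and the elongation factor gene EEF1A1 held a pyrimidine word at the start, as is known for messages of the translation machinery, whose transcripts begin with a run of pyrimidines. CALR and RPS28 held TATAAA, and so did NPPA, which encodes atrial natriuretic peptide and was not expressed here. A match is a string of letters and not a measured binding site.

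TATAAA was found in 11 of 79 promoters (13.9%) of protein-coding genes averaging 13 or more. The share was 3.50% for means of 10 to 13, 2.52% for 7 to 10, 0.906% between the threshold and 7, and 3.90% for genes not expressed, so it did not follow the signal below 13. Over all expressed protein-coding genes it was 2.08%, over all protein-coding genes 3.57%, and over every promoter entry 2.63%. A pyrimidine word at the start was found in 21 of the 79 (26.6%), and in 10.1% to 12.6% of each lower range of expressed genes. It was found in 10.6% of promoters of genes not expressed, 10.7% of those of all protein-coding genes and 11.7% of all promoters. Without ribosomal protein genes the share among promoters of genes averaging 13 or more was 22.2%. Expressed ribosomal protein genes held such a word in 25 of 33 promoters, and those not expressed in 8 of 14. Median GC content was 66.3% for expressed protein-coding genes and 62.3% for those not expressed.

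Lists of genes that define heart muscle were expressed about as often as all protein-coding genes, or less often. In bulk RNA, fewer cells with a marker and less of its RNA per cell cannot be told apart. Of 25 measured sarcomere genes, 4 were expressed, which is close to the 17.1% of all protein-coding genes. ANKRD1, a stress-responsive nuclear and sarcomere protein gene, read 7.59, 8.32 and 11.01, and was higher on control 3 than on the others by more than the gap between these. DES, which encodes the muscle intermediate filament desmin, read 7.58, 6.91 and 7.48. MYL2, the ventricular regulatory light chain gene, read 6.87, 7.03 and 7.86, and the tropomyosin gene TPM1 read 6.33, 6.32 and 7.08. Other defining sarcomere genes were not above the threshold. The cardiac alpha actin gene ACTC1 averaged 5.33 and exceeded the array's own highest background value on controls 2 and 3 but not on control 1, while the myosin heavy chain genes MYH6 and MYH7 averaged 4.07 and 3.95, the cardiac troponin gene TNNI3 averaged 3.83 and the titin gene TTN 3.88.

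Calcium handling and ion channel genes of the heart were expressed in 1 of 20 cases (5%), against 17.1% of all protein-coding genes. That gene was ATP2A2, which encodes the pump that returns calcium to the sarcoplasmic reticulum, at 8.23, 7.79 and 9.86. Cells other than muscle also use this pump. The calcium release channel gene RYR2 averaged 3.95. Among 19 cardiac transcription factor and hormone genes, 2 were expressed (10.5%). These were SRF (6.54, 6.46 and 6.46) and MEF2D (6.07, 6.05 and 6.04), both transcription factors of many tissues. The heart regulators NKX2-5, GATA4 and TBX5 averaged 4.16, 4.10 and 4.46, and NPPA averaged 4.09. Of 17 receptor genes of the heart 2 were expressed (11.8%). They were the TNF receptor gene TNFRSF1A (8.20, 8.11 and 8.09) and the adenosine receptor gene ADORA2B (6.70, 6.79 and 6.68).

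Fibroblast markers were expressed in 6 of 19 cases (31.6%), against 17.1% of all protein-coding genes. The intermediate filament gene VIM read 11.45, 11.37 and 11.45. The collagen genes COL6A3 (9.78, 8.29 and 11.42), COL1A1 (7.16, 6.46 and 8.32) and COL1A2 (6.68, 5.80 and 7.84), the fibronectin gene FN1 (8.57, 7.54 and 10.42) and the growth factor receptor gene PDGFRB (6.59, 6.06 and 7.26) each read highest on control 3 and lowest on control 2. The 13 markers that were not expressed averaged 3.91 to 5.52, among them the other PDGF receptor gene, PDGFRA, at 4.06.

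Of 15 epithelial markers 3 were expressed (20%), near the 17.1% of all protein-coding genes. They were the keratin genes KRT8 (15.22, 15.09 and 14.77), KRT18 (14.77, 14.72 and 14.43) and KRT7 (6.33, 6.27 and 6.24). KRT8 and KRT18 encode the paired keratins of simple epithelia. The adhesion genes that define epithelia were not expressed, with means of 3.99 for CDH1 and 4.18 for EPCAM. Endothelial markers gave 1 of 12 (8.33%), ENG (8.57, 8.07 and 9.14), a TGF-beta co-receptor, with PECAM1 at a mean of 3.79. Smooth muscle markers gave 1 of 12 (8.33%), TAGLN (6.07, 5.97 and 5.74), and the count was 2 without control 3. Leukocyte markers gave 1 of 13 (7.69%), the lysosomal protein gene CD68 (8.95, 8.26 and 10.35), with PTPRC at a mean of 4.02. Skeletal muscle markers gave 2 of 14 (14.3%), also near the 17.1%, ACTA1 (7.27 on all 3) and TNNT1 (7.34, 7.05 and 7.26). None of 11 neuron, 9 hepatocyte, 3 erythroid or 8 pluripotency markers was expressed.

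**Figure D2:**
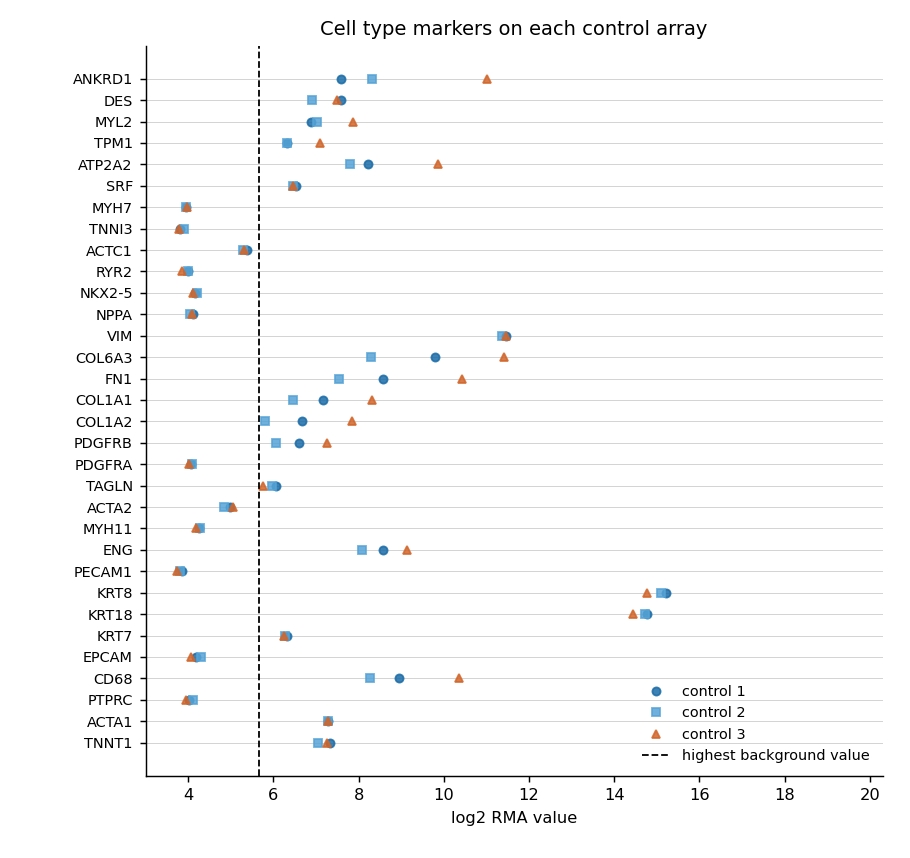
Log2 RMA value of cell type markers on each of the 3 control arrays, 1 gene per line, grouped from top to bottom as heart muscle, fibroblast, smooth muscle, endothelial, epithelial, leukocyte and skeletal muscle markers. Circles, squares and triangles are controls 1, 2 and 3, and the dashed line is the threshold of 5.66. KRT8 and KRT18 lie near 15, VIM above 11, and MYH7, TNNI3, RYR2, NKX2-5 and NPPA lie left of the line on every array.

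Cancer-testis antigen genes were among those with the highest signal. These genes are normally active in germ cells and are switched on in many tumours and some cell lines. Their list was added after their values had been seen. Of 45 measured members 19 were expressed (42.2%), against 15.7% of all genes. All 4 GAGE and all 7 SSX members were expressed, along with 3 of 6 PAGE, 2 of 3 MAGEC, 1 of 7 MAGEA and 1 of 8 MAGEB members and CTAG2. Among the SSX members, SSX6P and SSX8P are classed as transcribed pseudogenes, and SSX9 has no RefSeq class. The 5 SPANXN, 3 XAGE and 1 PRAME members were not.

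GAGE12B read 19.17, 19.25 and 19.54, and GAGE2A read 18.89, 19.13 and 19.63. SSX1, which encodes a repressor of transcription, read 16.68, 16.59 and 17.61. MAGEC2, a partner of ubiquitin ligases, read 10.62, 9.99 and 12.49, and PAGE5 read 8.07, 9.15 and 10.70. Of the 19, 18 were higher on control 3 than on the mean of controls 1 and 2, and CTAG2 (7.99, 7.58 and 7.35) was lower. After quantile normalization 17 were higher and 2 lower. Members of a family are near copies, so the array may read several as 1. The starts of the pair with the highest signal, on the same scale as the windows above, are shown to compare these copies.
GAGE2A, chrX:49589446-49589525, plus strand: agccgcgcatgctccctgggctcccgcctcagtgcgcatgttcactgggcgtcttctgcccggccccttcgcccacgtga
GAGE12B, chrX:49341114-49341193, plus strand: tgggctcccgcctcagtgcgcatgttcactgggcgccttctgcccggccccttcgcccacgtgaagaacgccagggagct

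Within their 300-base promoter entries these genes share an unbroken run of 235 bases. Whether their array probes are shared was not tested. No capitals appear because neither motif was found. The 35 cancer-testis promoters with an entry, of expressed and other members alike, had a median GC content of 54.3% and a median observed-to-expected CpG ratio of 0.414. The medians were 63.0% and 0.772 over all protein-coding genes, 66.3% and 0.866 over those expressed, and 62.3% and 0.739 over those not expressed.

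**Figure D3:**
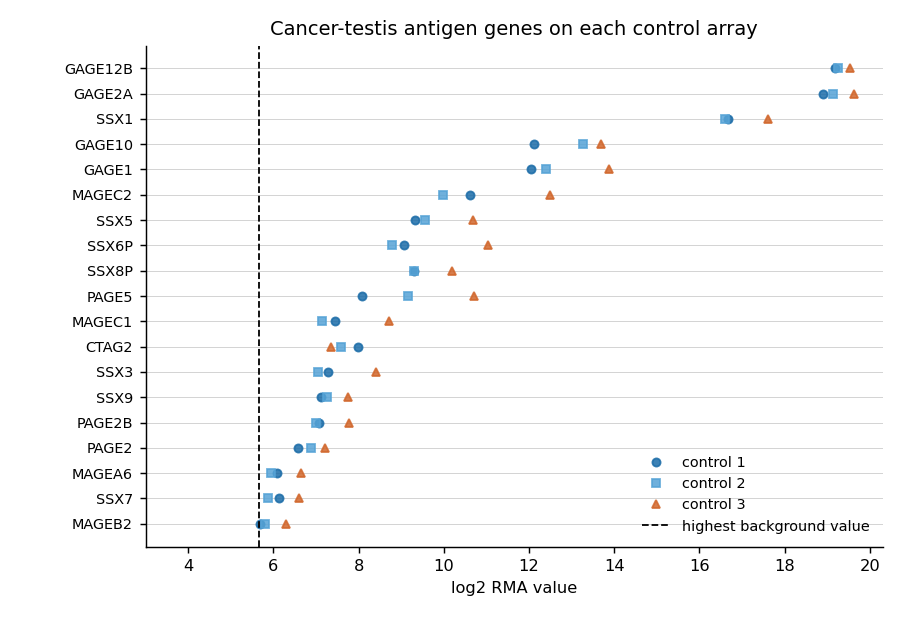
Log2 RMA value of the 19 expressed members of the cancer-testis list, pseudogenes included, on each control array, ordered by mean, with the dashed line at 5.66. Triangles (control 3) lie to the right of circles and squares (controls 1 and 2) for 18 of the 19 genes, and CTAG2 is the exception.

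Cytoskeleton genes were expressed more often than the 17.1% of all protein-coding genes, while matrix and adhesion lists lay on both sides of that share. Of 29 actin cytoskeleton genes 24 were expressed (82.8%), with ACTG1 at the ceiling and ACTB at 13.95 on all arrays. The myosin light chain gene MYL9 read 16.36, 16.36 and 16.54, and the crosslinker gene ACTN4 read 16.39, 15.81 and 16.48. Tubulins gave 11 of 15 and intermediate filament and lamin genes 9 of 15. Collagens gave 3 of 41 (7.32%). Matrix glycoproteins and proteoglycans gave 9 of 32 (28.1%), among them BGN (10.76, 10.17 and 11.50), THBS1 (9.33, 8.55 and 11.36) and SPARC (9.46, 8.64 and 11.12). All 9 read higher on control 3.

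Matrix metalloproteinases and their inhibitors gave 3 of 25 (12%), against 17.1% of all protein-coding genes. The gelatinase gene MMP2 read 11.77, 10.53 and 13.77, its membrane-bound activator gene MMP14 read 9.02, 7.96 and 10.44, and the inhibitor gene TIMP3 read 7.01, 6.80 and 7.80. Integrins gave 4 of 30 (13.3%), the alpha chains ITGA3 (11.66, 10.80 and 11.97) and ITGA5 (10.14, 9.23 and 10.25) and the beta chains ITGB1 (9.17, 9.07 and 9.89) and ITGB5 (7.17, 6.78 and 7.78). Junction genes gave 3 of 19 (15.8%). The N-cadherin gene CDH2 read 7.19, 6.66 and 8.79, while GJA1, the main gap junction gene of the ventricle, passed the threshold on control 3 alone (4.89, 4.76 and 5.97).

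Energy and lipid metabolism lists were expressed more often than the 17.1% of all protein-coding genes, fatty acid oxidation least so. Glycolysis genes were expressed in 16 of 21 cases (76.2%), with GAPDH at the ceiling, PGK1 at 12.89, 12.84 and 13.58 and the lactate dehydrogenase gene LDHA at 9.80, 9.78 and 9.83. Citrate cycle genes gave 11 of 15, complex I genes 17 of 31 and genes of complexes III to V 23 of 44. Fatty acid oxidation genes gave 7 of 21 (33.3%), of which ECHS1 read 10.55, 10.19 and 10.56 and CPT1A, the enzyme that admits long-chain fatty acids to mitochondria, read 6.24, 5.98 and 6.98. Cholesterol synthesis genes gave 13 of 16, and DHCR7, of the last step, read 14.87, 14.38 and 14.85.

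Antioxidant enzyme genes were expressed in 18 of 27 cases (66.7%), against 17.1% of all protein-coding genes. GPX4, which reduces lipid peroxides, read 15.72, 15.88 and 15.85. The quinone reductase gene NQO1 read 14.35, 13.75 and 15.03, and the glutathione transferase gene GSTP1 read 13.69, 13.68 and 13.69. Metallothioneins, which bind metals, gave 3 of 10 (30%), MT2A, MT1X (8.86, 9.86 and 8.34) and MT1E (8.09, 8.25 and 6.31). All 3 read lowest on control 3. Of the aryl hydrocarbon receptor pathway, which senses polycyclic compounds, 3 of 10 genes were expressed (30%). These were the chaperone genes HSP90AB1 (15.74, 15.30 and 16.36) and PTGES3 (8.73, 8.52 and 9.40) and NQO1. The receptor gene AHR averaged 4.28, and its target genes CYP1A1 and CYP1B1 averaged 4.09 and 4.04.

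**Figure D4:**
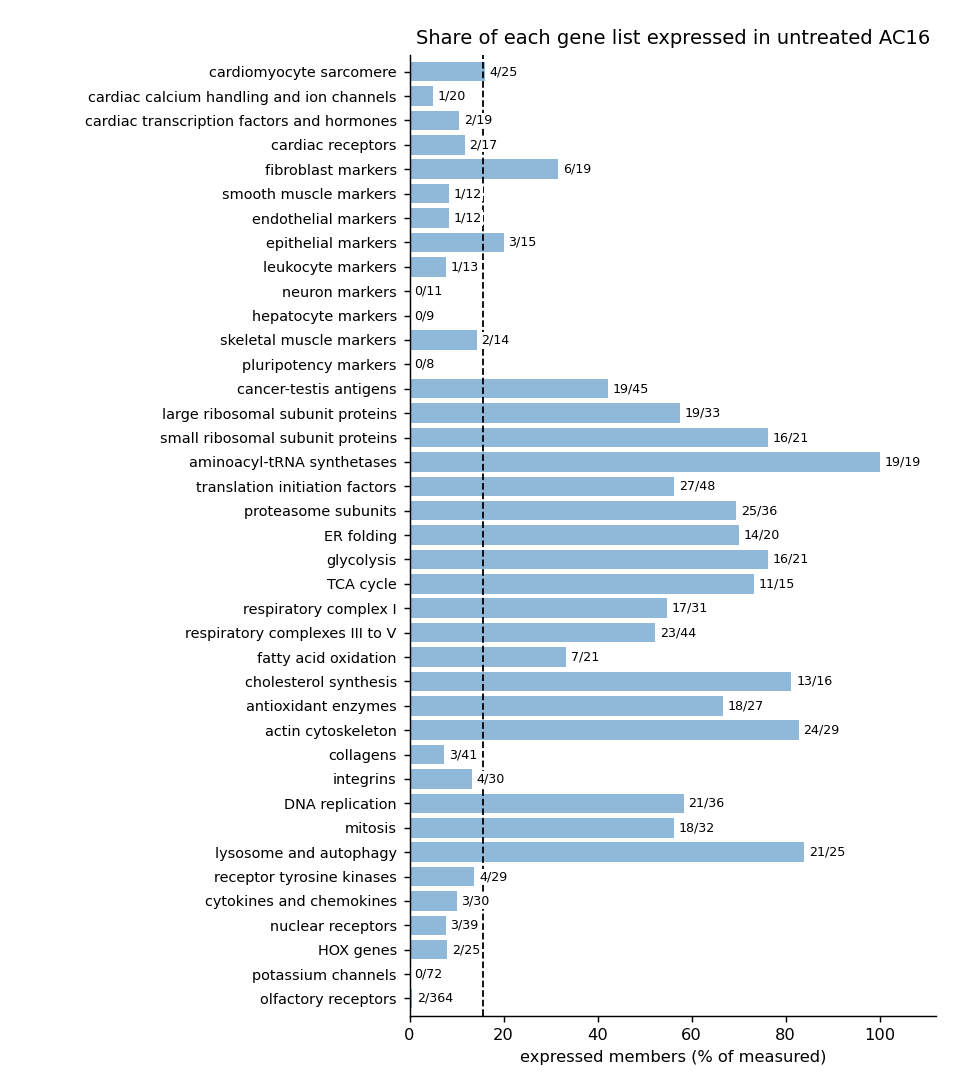
Bars give the percentage of the measured members of each gene list that were expressed on all 3 control arrays, with expressed and measured members beside each bar. The dashed line is the 15.7% of all 22465 genes. Heart muscle lists lie near it or left of it, and lists of protein synthesis, energy metabolism, cytoskeleton and cell division extend well past it.

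Genes of protein synthesis, folding and turnover were expressed more often than the 15.7% of all genes. All 19 listed aminoacyl-tRNA synthetase genes were expressed (the list leaves out the separate mitochondrial enzymes, such as AARS2, which averaged 4.76 and was not expressed, and TARS2, which averaged 6.83 and was), from AARS1 at 12.60, 11.39 and 12.81 downward. Initiation factors gave 27 of 48, elongation factors 6 of 8, and mitochondrial ribosomal proteins 34 of 74. Proteasome subunits gave 25 of 36, the cytosolic chaperonin 6 of 7, ER folding factors 14 of 20 and lysosome and autophagy genes 21 of 25. HSPA5, the main ER chaperone gene, read 11.61, 11.35 and 13.15.

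Ribosomal protein genes were split by the threshold. These proteins are made in near-equal amounts for each ribosome, yet 19 of 33 large-subunit and 16 of 21 small-subunit genes with 1 symbol passed. Their signal differed widely. RPL26 read 17.15, 17.60 and 17.57, and RPS16 read 17.59, 17.81 and 17.81. RPS6 averaged 4.37, RPS7 5.05, RPS14 5.47 and RPS23 5.57, each under the threshold.

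Cell division lists were expressed more often than the 17.1% of all protein-coding genes, though many members were not above the threshold. DNA replication genes gave 21 of 36 (58.3%), including the thymidylate synthase gene TYMS at 11.33, 11.21 and 12.84 and the helicase gene MCM5 at 9.77, 9.35 and 9.58. Mitosis genes gave 18 of 32 (56.3%). The kinase gene PLK1 read 13.95, 13.74 and 13.74, and the proliferation marker MKI67 read 7.78, 7.18 and 8.53. Replication-dependent histone genes gave 19 of 33, 3 of them at the ceiling. G1 regulators gave 7 of 20 (35%), with CDK4 at 14.53, 14.18 and 14.69 and the cyclin gene CCND1 at 7.32, 7.20 and 8.47. Apoptosis regulators gave 4 of 18 (22.2%), near the 17.1%. They were the survival genes BCL2L1 (8.63, 8.46 and 8.54) and MCL1 (6.47, 6.41 and 6.80) and the death genes BAX (7.18, 7.28 and 6.88) and PMAIP1 (6.12, 6.10 and 6.65).

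Receptor and growth factor lists lay near the 17.1% of all protein-coding genes, and the cytokine list somewhat under it. Receptor tyrosine kinases gave 4 of 29 (13.8%). AXL read 10.62, 10.01 and 13.14, TYRO3 7.24, 6.82 and 6.98, and EPHA2 7.05, 6.61 and 6.88, with PDGFRB as above. The count is open to the threshold, since 8 of the 29 exceeded each array's own highest background value. The growth factor receptor gene EGFR averaged 4.77 and the insulin receptor gene INSR 4.24. Growth factors gave 6 of 28 (21.4%), with TGFB1 at 8.28, 7.92 and 8.03 and TGFB2 at 7.06, 6.80 and 8.44. Cytokines and chemokines gave 3 of 30, MIF (9.34, 9.36 and 9.43), CSF1 (6.94, 6.39 and 7.37) and CCL2 (6.46, 5.78 and 6.22), while IL6 averaged 4.87 and CXCL8 4.20.

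Cytokine and innate receptors gave 4 of 23 (17.4%), of which TNFRSF12A, the receptor of the cytokine TWEAK, read 12.91, 12.95 and 13.14. Antigen presentation genes gave 5 of 14 (35.7%), against 17.1% of all protein-coding genes, with B2M at 9.66, 10.34 and 11.89. Nuclear receptors gave 3 of 39 (7.69%) and HOX genes 2 of 25 (8%), both under the 17.1%. The HOX genes were HOXC13 (6.93, 6.52 and 6.64) and HOXC10 (5.87, 5.97 and 5.85). AP-1 and immediate early factors gave 5 of 16 (31.25%), led by FOSL2 at 7.07, 6.71 and 7.32. Large families of narrow expression were nearly all under the threshold. Olfactory receptors gave 2 of 364, potassium channels 0 of 72, keratin-associated proteins 0 of 88 and taste receptors 0 of 26. ZNF genes, a large group of DNA-binding factors with low signal, gave 17 of 502 (3.39%).

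Protein-coding genes were expressed unevenly over the genome, in 186 of 709 cases on chromosome 16 (26.2%) and in 38 of 654 on chromosome 4 (5.81%), the ends of the range over the autosomes and X.

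Among noncoding RNAs, box C/D snoRNAs, which guide 2′-O-methylation, gave 85 of 173 (49.1%), and box H/ACA snoRNAs, which guide pseudouridylation, gave 42 of 64 (65.6%). Small Cajal body RNAs, which modify spliceosomal RNAs, gave 14 of 21 (66.7%). The share over all genes was 15.7%. Medians over the expressed members were 12.20 for box C/D and 10.65 for box H/ACA, against 7.05 over all expressed genes. Of 7 nuclear long noncoding RNAs 1 was expressed (14.3%), near the 15.7% of all genes. It was MALAT1, at 7.01, 7.10 and 7.34.

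The array read a signal at miRNA genes and not the mature miRNA. Of the 63 expressed miRNA genes, 17 belonged to the MIR548 family, which had 42 measured members (40.5%), against 46 of 998 for all others (4.61%). Of the 12 with the highest signal 6 were MIR548 genes. MIR548D1 read 19.16, 18.99 and 18.91, MIR4521 read 17.45, 17.97 and 15.20, MIR548AD read 16.98, 15.95 and 16.19 and MIR4466 read 15.64, 15.69 and 14.87. MIR548AJ2 (13.56, 12.42 and 13.76), MIR548AI (13.39, 12.17 and 13.48) and MIR548G (12.68, 11.35 and 12.83) each read lowest on control 2. Mature sequences (RefSeq, GRCh38.p14) were at hand for 9 of the 12, and MIR548D1 was not among these. Most are shown, with the seed of bases 2 to 8 in capitals, to compare the family with the others.
hsa-miR-548ad-3p: gAAAACGAcaaugacuuuugca
hsa-miR-548aj-3p: uAAAAACUgcaauuacuuuua
hsa-miR-548aj-5p: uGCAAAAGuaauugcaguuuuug
hsa-miR-548ai: aAAGGUAAuugcaguuuuuccc
hsa-miR-548g-3p: aAAACUGUaauuacuuuuguac
hsa-miR-548g-5p: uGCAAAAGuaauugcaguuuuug
hsa-miR-4521: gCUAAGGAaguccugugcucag
hsa-miR-4466: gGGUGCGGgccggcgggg
hsa-miR-622: aCAGUCUGcugagguuggagc

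The mature forms miR-548aj-5p and miR-548g-5p are identical and share the seed GCAAAAG, while the 3′ forms and miR-548ai each have a seed of their own. This family is derived from a repeated element with many copies in the human genome, so probes for 1 member may read others. The seeds of miR-4521, miR-4466 and miR-622 match none of these. Nor do those of miR-1303 (UUAGAGA) and miR-4454 (GAUCCGA), whose full sequences are left out above.

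Spread between the control arrays was moderate for most genes and followed control 3. The median SD of expressed genes was 0.277 on the log2 scale (n = 3). For 1025 of them (29.1%) it exceeded 0.5, and for 257 it exceeded 1. Control 3 was higher than the mean of controls 1 and 2 in 2342 expressed genes and lower in 1121, with a median difference of 0.208. More than a 2-fold difference was seen in 529 genes on the higher side and 250 on the lower side. The median difference was 0.331 after centring the arrays on their medians and 0 after quantile normalization over the genes then called expressed. Over the same 3526 genes it was -0.01 after quantile normalization, a step that itself sets the arrays to 1 distribution. Of these genes 1700 were then higher on control 3 and 1793 lower.

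The direction differed by RNA class. Expressed protein-coding genes had a median of 0.312, with 2215 higher and 678 lower on control 3. After quantile normalization the median was 0.06, with 1608 higher and 1310 lower. Expressed snoRNA genes had a median of -1.81, with 0 higher and 119 lower, and a median of -2.28 after quantile normalization. Small Cajal body RNAs (median -1.66, 14 of 14 lower), small nuclear RNAs (-0.80), histones (-0.66, 16 of 19 lower) and metallothioneins were also lower under each scaling tried. At the ceiling on controls 1 and 2 but below it on control 3 were 15 genes, all of them snoRNA genes except RNU4-1, RNU5E-1 and RNY1.

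**Figure D5:**
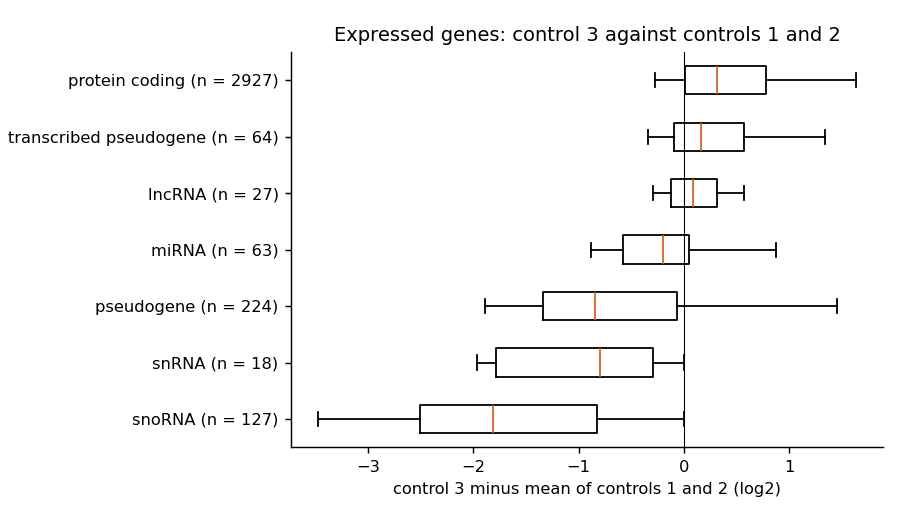
Difference between control 3 and the mean of controls 1 and 2 (log2) for expressed genes by RNA class. Boxes give the quartiles with the median in orange, whiskers run from the 5th to the 95th percentile, and n is the number of genes. The protein-coding median is 0.312 and the snoRNA median is -1.81.

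Among snoRNA genes, SNORD14D read 11.34 on control 3, against 15.10 and 16.69 on controls 1 and 2 (difference -4.56), and SNORA50A read 13.57, against 17.03 and 17.95. Of the protein-coding genes lower on control 3, MT1E differed by -1.87 and the histone genes H2BC3 and H2AC21 by -1.69 and -1.32. On the higher side, SRGN, a proteoglycan core protein gene, read 11.79 on control 3, against 8.23 and 8.94 (difference 3.20). ANKRD1 differed by 3.05 and AXL by 2.83. The fatty acid elongation gene HACD3, the motor gene MYO1E, DCBLD1, the chromatin remodeller gene CHD4, the respiratory gene COX6A1, MMP2 and the polyamine synthesis gene ODC1 differed by 2.56 to 2.75. The pseudogene TMSB4XP8 differed by 3.46. Each of these kept its direction after centring and after quantile normalization.

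At the other end, some genes below the ceiling hardly varied. The protease inhibitor gene CSTB read 5.83 on all 3 arrays, and GSTP1 and the vitamin K reductase gene VKORC1 (6.36 on all) had an SD under 0.01. Just inside the threshold on their lowest array were CYB561A3, POLR2B, TFDP1 and RFX5, at 5.657 to 5.658, and just outside it were RN7SKP1, GLIS2, MEAF6 and BAK1, at 5.654 to 5.655.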

How the data were processed

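RNA of AC16 cells was read on 6 Affymetrix arrays, and the 3 labelled control are described. The authors deposited log2 values, and the submitters' processing notes name RMA, which corrects background, scales arrays and summarises probes. Software version and build: not given in the sources used here. Of 67528 transcript clusters, 23781 had 1 symbol in GEO's platform annotation. For a gene with several clusters, the one with the highest mean over the 6 arrays was used. Expressed means above the highest of 23 background probe sets on all 3 control arrays. The table holds no counts, so the number of arrays limits precision. Gene classes and promoter and miRNA sequences came from RefSeq (GRCh38.p14), and 22167 genes had a class. No test was run, since 1 group is described. The members, lists, threshold and naming rule (ceiling genes, the highest signals, up to 6 expressed genes per list, the largest differences of control 3, threshold neighbours) were chosen with earlier results of these data known. Only some of the genes that rule allows are named. EGFR, INSR, IL6, CXCL8, AHR, CYP1A1, CYP1B1, RPS6, RPS7, RPS14, RPS23, LDHA, CPT1A, AARS2 and TARS2, beyond it or not at its top, were named after their values were seen. The choice of 1 cluster per gene and the calling step were tested on simulated data, and the difference step was not. The planted genes lay clear of the threshold and all other clusters under it. Calls near the threshold and choices between clusters of similar signal were therefore not tested. Python 3.11.15, pandas 2.3.3, numpy 2.4.6 and matplotlib 3.10.9 were used.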

Additional observations from a re-analysis of the deposited data

How the results depend on the processing

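The count of 3526 expressed genes was 7195 with the 95th percentile of each array's background values and 1854 with the threshold raised by 1. It was between 3458 and 4029 with each array's own highest background, at least 2 arrays, the mean, another choice of cluster, the mean of clusters, centring or quantile normalization. The highest background of control 1 is the threshold itself. With each array's own background the count therefore could not exceed the 3893 genes of control 1. Controls 2 and 3 had 7795 and 6805 genes over their own highest background. The list counts with each array's own background are bound by control 1 in the same way. All 3458 genes called after quantile normalization were among the 3526. Leaving out 1 control array at a time gave 3597 to 3690. The 33 ceiling genes were 31 with the mean of clusters, 41 within 0.1 of the ceiling and 33 to 48 leaving out 1 array, the 48 without control 3. Over the genes called under each setting, the median difference of control 3 ranged from 0 (quantile normalization) to 0.331 (centring). Over the 3526 genes it was -0.01 after quantile normalization and 0.340 after centring. Of 71 lists (the cancer-testis list, with 20 of its members over each array's own background against 19, is not among them), 5 changed their count by more than 1.5 times with each array's own background: smooth muscle (3), receptor tyrosine kinases (8), nuclear receptors (5), olfactory receptors (4) and potassium channels (1). Without control 2, smooth muscle gave 2, receptor tyrosine kinases 7 and potassium channels 1. Without control 3, smooth muscle gave 2. The causes were not tested. No paired analysis was possible because 1 group is described and no value comes from a test. Probe affinity, the ceiling and shared probes limit every rank, and 3 arrays limit every SD.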

Other observations

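Of 42204 transcript clusters with no symbol in the annotation, 3270 (7.75%) exceeded the threshold on all 3 control arrays and 93 stood at the ceiling. Of 1543 clusters with several symbols, 383 (24.8%) exceeded it and 28 stood at the ceiling. Their genes are not named here. Of 92 probe sets for the ERCC spike-in RNAs, which nothing in the labels says were added, 6 exceeded the threshold.

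Immunoglobulin and T cell receptor D and J segments, short germline pieces, exceeded the threshold in 5 of 8 (62.5%) and 5 of 14 cases (35.7%). Among V segments 0 of 155 did, and over all genes the share was 15.7%. All 10 expressed D and J segments read lower on control 3 than on the mean of controls 1 and 2. The 1 measured J segment pseudogene, classed apart, was also expressed and read higher on control 3 (difference 0.117). The telomerase RNA gene TERC, named after its value was seen, averaged 8.10, with a difference of -0.91 on control 3.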
